A study of Mus musculus with 4 samples.

Results

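Transcripts of 10 genes that build the synaptonemal complex and the meiotic chromosome axis were described in control and Np95 knockout mouse spermatocytes. The genes were taken by symbol from a deposited expression table of 24388 symbols, and all 10 were found. They were 2 genes of the lateral element (Sycp2 and Sycp3), 1 of the transverse filament (Sycp1), 5 of the central element (Syce1, Syce2, Syce3, Tex12 and 4930447C04Rik) and 2 of the Hormad axis (Hormad1 and its remodeller Trip13). The symbol 4930447C04Rik is the older name of Six6os1. The study sequenced poly(A) RNA of 4 libraries, 2 of control and 2 of Np95 knockout spermatocytes, all from C57BL/6 mice with an age label of 21 dpc, an abbreviation the labels do not spell out. Np95, with the gene symbol Uhrf1, guides the maintenance of DNA methylation after replication. The column heads of the table write the knockout as cKO, and neither the deleted part nor the promoter driving a recombinase is named in the labels. Cells came from minced tubules digested with accutase and strained, with no sorting described, and pooling of animals is not stated. Whether the replicates are different animals is not stated, so each p-value rests on the spread from library to library, which could be technical alone.

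In meiotic prophase each pair of sister chromatids is folded along a protein axis of cohesins, HORMA-domain proteins and the lateral element proteins SYCP2 and SYCP3. SYCP1 then spans the gap between the axes of paired homologues, with its ends meeting in the central element, which is made of SYCE1, SYCE2, SYCE3, TEX12 and SIX6OS1. HORMAD1 marks axes that have not yet synapsed, and the ATPase TRIP13 strips it from them as synapsis proceeds. Loss of these proteins in mice is known to arrest spermatocytes in prophase.

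Uhrf1 was at 3.11 and 3.29 RPKM in the control libraries and at 1.87 and 1.48 RPKM in the libraries labelled as knockout, 1.91-fold lower (adjusted p = 0.0031), and not absent from them. RPKM is a read count scaled to library depth and gene length, here taken to be the whole gene span with introns. A gene can then be compared between libraries, and genes cannot be compared with each other without a correction. From the steps between low values, the libraries held about 5810000 and 12790000 fragments (control replicates 1 and 2) and 11090000 and 4805000 fragments (knockout replicates 1 and 2). Each value of the 10 genes then rested on 133 to 8173 fragments. Of 9099 genes tested with limma on log2(RPKM + 1), 73.8% were called at an adjusted p of 0.05, 43.3% higher and 30.5% lower in the knockout, so a call alone says little about these 10 genes. The median log2 fold change of all tested genes was 0.14. It moved to 0.46 when every library was given an equal RPKM sum, where 5657 genes were higher and 1663 lower, to -0.074 with an equal median (2997 and 3623), and to -0.017 with quantile normalization (3074 and 3179).

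The promoters of these genes are shown because Np95 acts on CpG methylation and because members that moved in opposite ways could be set beside each other. Promoter sequences were those of RefSeq on GRCm38.p6, a build other than the authors' mm9, and all 10 genes matched by symbol. In windows of 300 bases around the start, the 10 genes held 5 (Syce3) to 34 (Trip13) CpG, with a median of 19, against a median of 7 over 27025 promoters. The E-box CACGTG, which reads the same on both strands and is bound by MAX and MGA among others, was in 5 of the 10 windows and in 7.24% of all promoters. Its letters hold a CpG, and its share among promoters of like CpG content was not taken. The windows with it were those of Sycp3 and Hormad1, with 2 each, and of Sycp1, Tex12 and 4930447C04Rik, with 1 each. The letters CNCCTCAG, known as a STRA8 motif, were on either strand in 3 of the 10 windows (Sycp1, Tex12 and 4930447C04Rik) and in 7.97% of all promoters. In these genes no match lay wholly within the 250 bases before the start. The E2F motif TCCCGC, which also holds a CpG, was in 5 of 10 windows and in 20.0% of all. The MYB core AACNG was in 9 of 10 and 80.4%. These are matches of letters and no measure of binding or of methylation, neither of which was measured here. The 250 bases before the start follow, 5′ to 3′, with the E-box in capitals, for 2 genes that rose in the knockout, 2 that did not pass the test and 2 that fell.
Sycp1, chr3:102936101-102936350, minus strand: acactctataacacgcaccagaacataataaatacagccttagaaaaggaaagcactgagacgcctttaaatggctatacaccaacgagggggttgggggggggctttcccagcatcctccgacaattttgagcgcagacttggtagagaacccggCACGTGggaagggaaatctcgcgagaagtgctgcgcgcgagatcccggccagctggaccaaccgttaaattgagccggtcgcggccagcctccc
4930447C04Rik, chr12:72917766-72918015, minus strand: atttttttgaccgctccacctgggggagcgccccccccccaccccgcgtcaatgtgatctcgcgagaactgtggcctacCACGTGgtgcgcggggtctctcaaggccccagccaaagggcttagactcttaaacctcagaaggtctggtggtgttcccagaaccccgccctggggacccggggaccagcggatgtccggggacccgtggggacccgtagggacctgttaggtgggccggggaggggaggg
Sycp3, chr10:88459337-88459586, plus strand: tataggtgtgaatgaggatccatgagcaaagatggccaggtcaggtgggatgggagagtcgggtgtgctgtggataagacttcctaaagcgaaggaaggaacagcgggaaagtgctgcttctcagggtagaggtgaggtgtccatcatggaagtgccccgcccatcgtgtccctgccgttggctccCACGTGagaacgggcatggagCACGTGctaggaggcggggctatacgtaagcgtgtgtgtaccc
Hormad1, chr3:95559427-95559676, plus strand: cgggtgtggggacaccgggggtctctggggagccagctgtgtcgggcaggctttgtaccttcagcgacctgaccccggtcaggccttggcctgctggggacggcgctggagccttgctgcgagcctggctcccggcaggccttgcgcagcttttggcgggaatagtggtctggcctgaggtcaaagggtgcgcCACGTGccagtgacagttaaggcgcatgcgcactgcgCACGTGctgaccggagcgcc
Syce1, chr7:140787855-140788104, minus strand: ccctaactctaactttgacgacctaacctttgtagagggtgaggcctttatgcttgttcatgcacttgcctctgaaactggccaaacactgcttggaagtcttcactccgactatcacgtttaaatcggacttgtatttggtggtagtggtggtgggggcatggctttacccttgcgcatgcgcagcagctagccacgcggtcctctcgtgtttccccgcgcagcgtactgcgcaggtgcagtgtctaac
Syce3, chr15:89410504-89410753, minus strand: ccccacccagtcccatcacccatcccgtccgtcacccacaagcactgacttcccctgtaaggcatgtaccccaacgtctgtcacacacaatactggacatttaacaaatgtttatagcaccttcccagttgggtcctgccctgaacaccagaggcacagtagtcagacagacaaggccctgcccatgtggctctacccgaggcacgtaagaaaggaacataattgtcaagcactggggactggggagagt
The other genes lie on chromosomes 2 (Sycp2), 8 (Syce2), 9 (Tex12) and 13 (Trip13). No E-box stands in the Syce1 and Syce3 sequences, and none was in the windows of Syce2 and Trip13, which rose, or of Sycp2, which was not called.

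Of the 10 genes 4 rose, 2 fell and 4 did not pass the test. Sycp1, Syce2, 4930447C04Rik and Trip13 were higher, and Syce1 and Syce3 were lower. For 8 of the 10 genes both knockout libraries lay on one side of both controls, as they did for 89.9% of all tested genes. The median log2 fold change of the 10 genes was 0.15, beside 0.14 for all tested genes. With a filter of 5 RPKM 3 of the 6 members still tested were called, beside 78.1% of all genes tested there. Of these 6, Syce2 and 4930447C04Rik reached 5 RPKM only in the knockout libraries, so their calls there lean upward. Trip13 was under 1 RPKM in both control libraries and entered the test only through the knockout libraries. The direction of the 6 called genes was the same under each scaling between libraries, while the directions of Sycp2, Sycp3, Tex12 and Hormad1 were not.

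**Figure D1:**
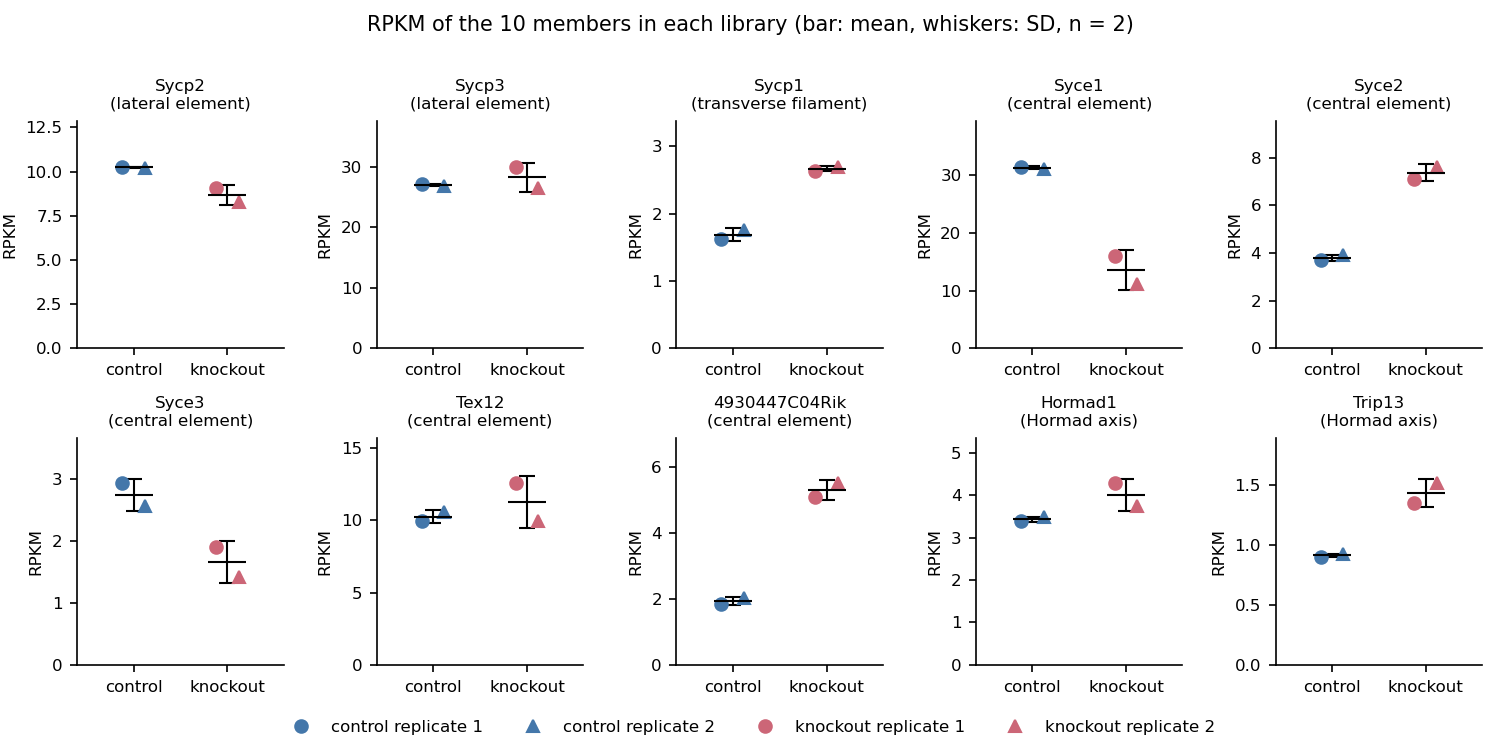
RPKM (vertical axes, each from 0) of the 10 genes in control and knockout libraries, 1 point per library, with the mean as a bar and the SD as whiskers (n = 2). Syce1 and Syce3 sit lower in both knockout libraries, Sycp1, Syce2, 4930447C04Rik and Trip13 sit higher, and the groups overlap for Sycp3 and Tex12.

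Neither lateral element gene passed the test. Sycp3, the main structural protein of the axis, was at 27.1 and 26.9 RPKM in the control and at 30.0 and 26.6 RPKM in the knockout. Both groups overlapped, knockout replicate 1 being the highest library and knockout replicate 2 the lowest. The log2 fold change was 0.063 (95% interval -0.21 to 0.34, adjusted p = 0.62). Sycp3 lies inside the span of Chpt1, a lipid enzyme gene on the other strand, and 660 of its 1264 exonic bases are also exon of Chpt1 in GENCODE. The library preparation does not mark strand, and Chpt1 was at 4.64 and 4.72 RPKM in the control and at 5.37 and 4.73 RPKM in the knockout. Knockout replicate 1 was the highest library for both genes, while knockout replicate 2 was the lowest for Sycp3 only. How far reads of these genes mix was not tested. Sycp2, the partner of SYCP3 in the lateral element, was at 10.3 and 10.2 RPKM in the control and at 9.06 and 8.26 RPKM in the knockout. Both knockout libraries were lower, but the difference of 1.18-fold did not pass (log2 fold change -0.22, 95% interval -0.45 to 0.01, adjusted p = 0.072). It passed without knockout replicate 1 (adjusted p = 0.030) and with an equal median (0.0093). Sycp3 was higher under an equal RPKM sum (log2 fold change 0.47, adjusted p = 0.0075) and under quantile normalization (0.585, adjusted p = 0.0075). Sycp2 turned to 0.16 under an equal RPKM sum (adjusted p = 0.16).

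Sycp1, the transverse filament protein, was higher in both knockout libraries. It was at 1.62 and 1.76 RPKM in the control and at 2.64 and 2.70 RPKM in the knockout, 1.58-fold higher. The difference was several times the spread between replicates, with SDs of 0.0925 and 0.0394 RPKM. The log2 fold change was 0.45 (SE 0.07, adjusted p = 0.0039), and Sycp1 passed under every scaling and without any 1 library, with its largest adjusted p of 0.048 without control replicate 1. Its gene is the longest of the 10, at 117602 bases in RefSeq, for a principal transcript of 3437 bases, which is why its RPKM looks small.

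The 5 central element genes split. Syce1 was at 31.4 and 31.1 RPKM in the control and at 15.9 and 11.2 RPKM in the knockout, 2.30-fold lower. The controls were nearly equal, and the knockout libraries lay well below them and apart from each other (SD 3.38 RPKM). The log2 fold change was -1.17 (SE 0.18, adjusted p = 0.0031), lower than that of all but 6.64% of tested genes. SYCE1 is a central element protein whose loss is known to stop synapsis, and SYCE3 is needed to bring it to the complex.

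Syce3 was at 2.93 and 2.56 RPKM in the control and at 1.91 and 1.42 RPKM in the knockout, 1.65-fold lower (log2 fold change -0.50, SE 0.12, adjusted p = 0.014). Both knockout libraries were lower than both controls. The call ended without control replicate 1 (adjusted p = 0.079) and under an equal RPKM sum (0.15), the direction remaining. Only 139 fragments lay behind the value of knockout replicate 2.

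In the opposite direction, 4930447C04Rik was at 1.86 and 2.03 RPKM in the control and at 5.09 and 5.51 RPKM in the knockout. No library of the groups came close to the other group, the SDs being 0.117 and 0.297 RPKM. The rise of 2.73-fold had a log2 fold change of 1.10 (SE 0.08, adjusted p = 0.0014), higher than 91.9% of tested genes. Its protein, SIX6OS1, binds SYCE1 in the central element. The eye gene Six6, which overlaps it on the other strand by 883 bases, was listed at 0 in 3 of the 4 libraries and at 0.0712 RPKM in knockout replicate 1.

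Syce2 was at 3.73 and 3.90 RPKM in the control and at 7.13 and 7.62 RPKM in the knockout, 1.93-fold higher (log2 fold change 0.80, SE 0.08, adjusted p = 0.0015). Both knockout libraries were well above both controls. Gcdh, a gene of lysine breakdown on the other strand, overlaps Syce2 by 1829 bases. It held 3.39 and 3.68 RPKM in the control and 6.95 and 6.81 RPKM in the knockout, 1.95-fold higher. The exons of Syce2 and Gcdh share 0 bases in GENCODE, although 1087 of the 1704 exonic bases of Syce2 lie within the span of Gcdh. Whether reads of Gcdh add to Syce2 was not tested.

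Tex12, whose protein forms filaments with SYCE2, was at 9.96 and 10.6 RPKM in the control and at 12.6 and 9.99 RPKM in the knockout. The groups overlapped, and the log2 fold change was 0.12 (95% interval -0.21 to 0.45, adjusted p = 0.45). Tex12 was higher under an equal RPKM sum (adjusted p = 0.011) and without knockout replicate 2 (adjusted p = 0.048). Its exons lie within the span of Il18, on the other strand, with 0 exonic bases shared, and Il18 was at 0.237 and 0.267 RPKM in the control and 0.545 and 0.611 RPKM in the knockout.

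The Hormad axis genes were both above control, and only Trip13 passed. Hormad1 was at 3.39 and 3.48 RPKM in the control and at 4.28 and 3.74 RPKM in the knockout. Both knockout libraries were above the controls, by a log2 fold change of 0.17 (95% interval -0.05 to 0.40, adjusted p = 0.13). It passed under an equal RPKM sum (adjusted p = 0.0037) and without knockout replicate 2 (adjusted p = 0.046), and with an equal median its log2 fold change turned to -0.029. Trip13 was at 0.903 and 0.923 RPKM in the control and at 1.35 and 1.51 RPKM in the knockout, 1.57-fold higher (log2 fold change 0.35, SE 0.07, adjusted p = 0.0098). The call ended without control replicate 1 (adjusted p = 0.077), without control replicate 2 (adjusted p = 0.067) and with quantile normalization (adjusted p = 0.33). Without either knockout library Trip13 did not reach the filter.

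**Figure D2:**
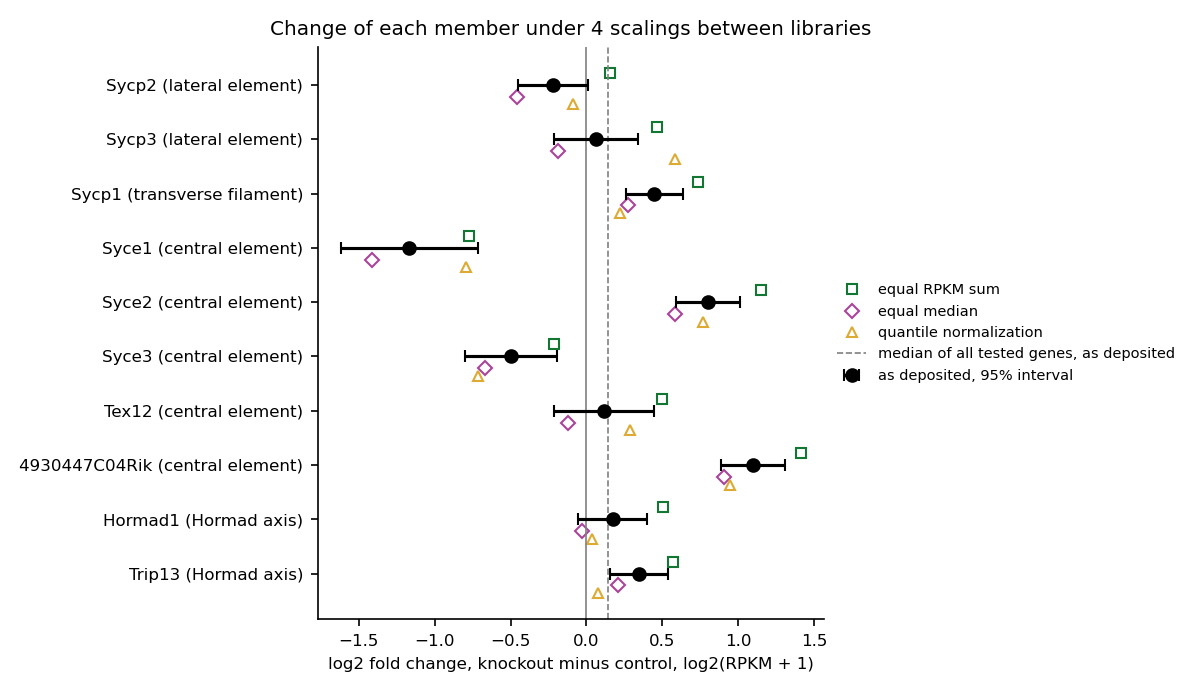
Log2 fold change of each gene (knockout minus control, horizontal axis) as deposited, with its 95% interval from limma, and under 3 other scalings (open symbols). The dashed line is the median of all tested genes, 0.14. 4930447C04Rik (1.10) and Syce1 (-1.17) lie on either side of 0 under each scaling, while the symbols of Sycp2, Sycp3, Tex12 and Hormad1 fall on both sides.

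Ratios between genes of the same library, and shares, do not change with 1 factor per library such as an equal RPKM sum or median, but quantile normalization does change them. Ratios of RPKM were taken for 8 gene pairs, most of them known protein partners, chosen after the values had been seen. Syce1 over 4930447C04Rik was 16.9 and 15.3 in the control and 3.13 and 2.02 in the knockout, a ratio 6.39-fold lower. Syce1 over Syce2 was 8.42 and 7.96 in the control and 2.24 and 1.46 in the knockout, 4.53-fold lower. The 2 genes that fell did not keep their ratio, with Syce1 over Syce3 at 10.7 and 12.1 in the control and at 8.36 and 7.83 in the knockout. Syce2 over Tex12 was 0.374 and 0.369 against 0.568 and 0.763. Sycp1 over Syce3 was 0.554 and 0.685 in the control and 1.39 and 1.89 in the knockout. Sycp1 over Sycp3 was 0.0599 and 0.0654 against 0.0881 and 0.101. Sycp3 over Sycp2 was 2.64 and 2.63 against 3.31 and 3.22, the tightest of the 8 ratios within groups. Hormad1 over Trip13 was 3.75 and 3.77 against 3.17 and 2.47. Control and knockout libraries did not overlap in any of these 8 ratios, nor in 43 of the 45 ratios that the 10 genes allow. Single values did not overlap for 89.9% of all tested genes. The share among ratios of other gene pairs was not taken, so such counts say little about these 10 genes. After quantile normalization, tried after the data had been seen, 42 of the 45 ratios did not overlap and 7 changed direction. Syce1 over 4930447C04Rik, over Syce2 and Sycp1 over Syce3 kept theirs, with log2 differences of -2.07, -1.74 and 1.39. Among the 8 pairs Syce1 over Syce3 turned to 8.52 and 9.25 in the control and 10.5 and 10.3 in the knockout, and Sycp1 over Sycp3 to 0.0795 and 0.0881 against 0.0657 and 0.0719. Hormad1 over Trip13 then overlapped, at 3.31 and 3.29 against 3.50 and 2.70. An exact permutation test of 2 against 2 libraries cannot go below p = 0.333, and no other test was run on these ratios.

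Between the structural classes, ratios were taken from the mean log2 RPKM of their genes. The log2 difference, knockout minus control, was -0.75 for lateral element over transverse filament (pooled SD 0.11) and -0.52 for lateral element over the Hormad axis (SD 0.073). It was 0.55 for transverse filament over central element (SD 0.13) and 0.23 for transverse filament over the Hormad axis (SD 0.045). Central element over the Hormad axis gave -0.32 and lateral over central element -0.20. All 6 had an exact p of 0.333, the smallest possible, also after adjustment over the 6. Lateral over central element reversed when RPKM were summed within classes (0.34 higher in the knockout), a sum to which Syce1 gives more RPKM than any other central element gene. Quantile normalization moved the ratios further, lateral over central element to 0.14, lateral element over the Hormad axis to 0.16, central element over the Hormad axis to 0.018 and lateral element over transverse filament to -0.069, while transverse filament over central element (0.21) and over the Hormad axis (0.23) stayed positive. The central element genes differed among themselves by 2.27 in log2 fold change, from -1.17 for Syce1 to 1.10 for 4930447C04Rik, against 0.28 between Sycp2 and Sycp3 and 0.17 between Hormad1 and Trip13.

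To set genes beside each other, RPKM was converted to a level per kilobase of the principal spliced transcript, using RefSeq spans and GENCODE transcript lengths on GRCm38, which assumes that reads lie on exons. On this scale Sycp3 was the most abundant in the control, at 323 ± 2.13 (SD, n = 2), followed by Syce1 at 227 ± 1.62. Syce3 (116 ± 11.2) and Sycp2 (112 ± 0.358) came next and differed by less than their spread. Hormad1 stood at 64.1 ± 1.15, Sycp1 at 57.8 ± 3.17 and Tex12 at 42.2 ± 1.77. The levels of 4930447C04Rik (35.8 ± 2.16) and Syce2 (34.7 ± 1.13) were within their spread of each other, and Trip13 was lowest at 6.81 ± 0.108.

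In the knockout Sycp3 remained first, at 339 ± 29.0 per kilobase of transcript. Syce1 (98.6 ± 24.6), 4930447C04Rik (97.7 ± 5.47), Sycp2 (94.6 ± 6.16) and Sycp1 (91.3 ± 1.35) then lay within the spread of Syce1. Hormad1 (74.8 ± 7.13), Syce3 (70.5 ± 14.4) and Syce2 (67.1 ± 3.16) followed, and Tex12 (46.3 ± 7.48) and Trip13 (10.7 ± 0.857) were lowest. Summed over the 10 genes the level was 1024 and 1016 in the control and 1046 and 936 in the knockout, so the groups overlapped. Summed over the central element it was 462 and 451 in the control and 407 and 353 in the knockout. Syce1 made up 49.5% and 50.1% of the central element level in the control and 28.5% and 23.0% in the knockout. The share of 4930447C04Rik was 7.42% and 8.28% in the control and 23.0% and 28.7% in the knockout, and that of Syce2 was 7.34% and 7.88% against 15.9% and 19.6%. Syce3 held 26.9% and 24.1% in the control and 19.8% and 17.1% in the knockout, and Tex12 8.86% and 9.63% against 12.7% and 11.6%.

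**Figure D3:**
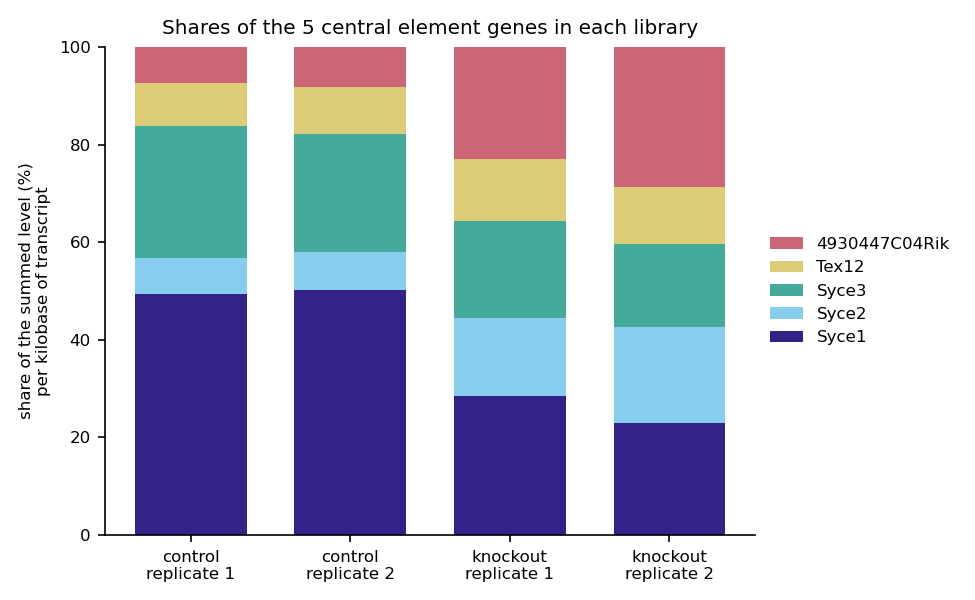
Share of each of the 5 central element genes in their summed level per kilobase of transcript (vertical axis, %), 1 bar per library. Syce1 takes 49.5% and 50.1% in the control libraries and 28.5% and 23.0% in the knockout libraries, and 4930447C04Rik grows from 7.42% and 8.28% to 23.0% and 28.7%.

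Other genes of the axis and of synapsis were listed by role. Of 24 such genes 22 were in the table and 14 reached the filter. Of these 14, 9 were higher, 2 lower and 3 not called (median log2 fold change 0.65, beside 0.14 for all tested genes). Among all tested genes 43.3% were higher and 30.5% lower. Rad21l and Smc3 entered only through the knockout libraries, so these counts lean upward. Without the filter 15 of the 22 were higher and 2 lower. Of all 21208 genes 7370 were then higher and 3446 lower, 51% being called. With an equal RPKM sum 11 were higher and 0 lower, beside 5657 and 1663 of all 9345 genes. With an equal median or quantile normalization 8 were higher and 3 lower. Beside them were 2997 and 3623 of 9002 genes with an equal median, and 3074 and 3179 of 8960 with quantile normalization.

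Among the cohesins of the axis, Stag3 was at 14.3 and 14.8 RPKM in the control and 15.4 and 13.8 RPKM in the knockout and was not called (adjusted p = 0.98), like Sycp3. The kleisin Rec8 rose 3.27-fold, from 0.923 and 1.19 RPKM to 3.15 and 3.74 RPKM. The kleisin Rad21l rose 4.52-fold, Smc1b 2.09-fold and Smc3, which mitotic cells also use, 4.22-fold. Of the break machinery that docks on the axis, Ccdc36, also called Iho1 and a partner of HORMAD1, rose 1.99-fold, from 1.96 and 1.78 RPKM to 3.46 and 3.99 RPKM. Spo11, the nuclease of meiotic breaks, fell 1.72-fold, from 8.19 and 7.98 RPKM to 5.32 and 4.10 RPKM, a fall that missed the threshold under an equal RPKM sum (adjusted p = 0.0504). Mei1, Mei4, Rec114 and Gm960 were below the filter in each library, and were higher without it.

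Of factors that act on the complex, Msh5 rose 2.66-fold and Fkbp6 1.81-fold, while Ccnb1ip1, a crossover regulator, was 1.31-fold lower and not called (adjusted p = 0.090). Tex11 was below the filter and higher without it, and its partner in the pathway Msh4 was at 0.792 and 0.784 RPKM in the control and 0.845 and 0.800 RPKM in the knockout, not called without the filter (adjusted p = 0.73). Of the genes that tie telomeres to the nuclear envelope, Sun2 rose 2.43-fold and Sun1 1.31-fold. Ccdc155, also called Kash5, fell 1.55-fold, from 8.15 and 8.45 RPKM to 6.05 and 4.67 RPKM, and Terb1 was not called (adjusted p = 0.90). The call of Ccdc155 ended without control replicate 1 (adjusted p = 0.0504), without control replicate 2 (0.061) and under an equal RPKM sum (0.18). That of Sun1 ended without control replicate 1 (adjusted p = 0.10), without control replicate 2 (0.14), with an equal median (0.28) and with quantile normalization (0.14). Hormad2, the relative of Hormad1, was at 0.410 and 0.445 RPKM in the control and at 0.640 and 0.661 RPKM in the knockout, 1.52-fold higher (adjusted p = 0.036 without the filter), and Sycp2l, of oocytes, was at 0.00924 RPKM or less in each library.

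Genes with the nearest course over the 4 libraries were found for 1 gene of each class among 9089 others, by the Euclidean distance of log2(RPKM + 1) centred on each gene. The nearest to Hormad1 was Terb2, a telomere attachment gene of meiosis, with 1.24 and 1.30 RPKM in the control and 1.74 and 1.45 RPKM in the knockout (distance 0.0180), then B4gat1 and Slc35c2. The nearest to Sycp3 were Tmem209 (distance 0.0103), Manea and Ccdc166. Thoc7, of an mRNA export complex, was nearest to Syce1 (distance 0.0268), at 16.6 and 16.8 RPKM in the control and 8.39 and 5.76 RPKM in the knockout, then 9530082P21Rik and Mroh2a. Fam169a (distance 0.0181), Gm19582 and Terf2ip, of the telomere cap, were nearest to Sycp1. With 4 libraries in 2 groups, such nearness describes these libraries only. Among the 10 genes themselves, Syce2 and 4930447C04Rik were each other's nearest, as were Sycp1 with Trip13 and Sycp3 with Hormad1.

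Genes of other stages and cell types moved in the same libraries. The counts below stand beside 43.3% of all tested genes called higher, 30.5% called lower and 89.9% with no overlap of the groups. Genes said to lead a list had its highest mean RPKM, with no correction for gene span. All 8 genes of early prophase on a marker list rose, 3 of them entering only through the knockout libraries (median log2 fold change 1.36), and their summed RPKM was 17.3 and 17.9 in the control and 62.3 and 62.1 in the knockout. Of 10 genes of pachytene and later spermatocytes 9 fell and 1 rose (median -1.63), the sum going from 1262 and 1238 RPKM to 583 and 461 RPKM. That sum mostly follows Hspa2, at 693 and 682 RPKM in the control and 415 and 348 RPKM in the knockout. Its fall was not called in the limma fit without the filter (adjusted p = 0.077). The changes of Syce1 (-1.17) and 4930447C04Rik (1.10) lay between the medians of the early prophase and pachytene lists. Both lists were chosen with earlier results of these data known, so their medians are no independent measure of stage. In these bulk suspensions fewer cells of a type and less RNA per cell cannot be told apart. Of 13 Sertoli cell genes in the table, all 13 were higher in both knockout libraries, led by Aard and Clu, and 12 of 12 tested were called, 2 of them entering only through the knockout libraries. Their summed RPKM was 121 and 144 in the control and 373 and 472 in the knockout, with none at 0 in any library. Sums of 6 Leydig cell genes, led by Insl3 and Star, were 17.8 and 17.3 in the control and 56.1 and 46.9 in the knockout. Those of 4 peritubular genes, led by Tagln and Acta2, were 2.46 and 2.64 against 4.54 and 4.69. Those of 5 macrophage genes, led by C1qa and Cd68, were 2.28 and 3.54 against 9.09 and 6.48, and 3 endothelial genes, led by Cdh5 and Kdr, summed to 0.279 RPKM or less in each library. Sums of 8 spermatid genes, led by Tnp2 and Tssk6, were 5.91 and 6.22 against 4.13 and 2.89. Sums of 8 spermatogonial genes, led by Id4 and Uchl1, were 46.0 and 50.5 against 42.9 and 41.3. That sum follows Id4, which fell, while 6 of the 8 genes were higher in both knockout libraries and 3 of 4 tested rose, 1 of them entering only through the knockout libraries. The germ line markers parted, Ddx4 being 1.39-fold lower and Dazl 2.65-fold higher. The part of cell composition in the changes of the 10 genes was not tested.

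**Figure D4:**
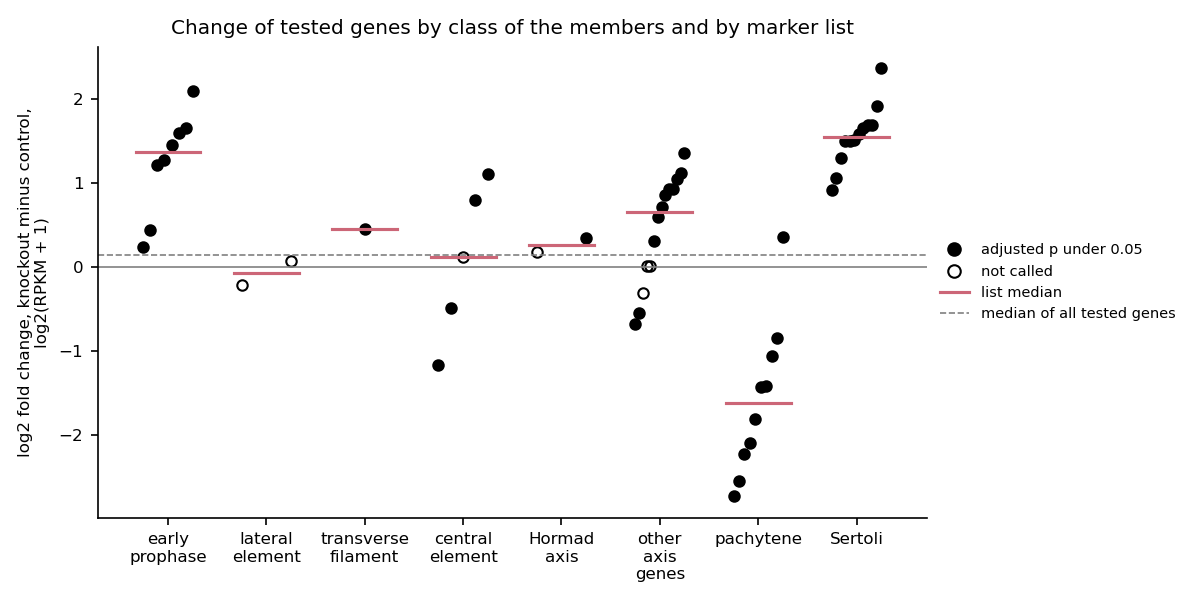
Log2 fold change (vertical axis, knockout minus control) of each tested gene in the 4 classes, among other axis genes and in 3 marker lists, filled where the adjusted p was under 0.05, with list medians as red lines. The central element spans -1.17 to 1.10, between the medians of the pachytene list (-1.63) and the early prophase list (1.36). The lists were chosen with earlier results of these data known.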

How the data were processed

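Poly(A) RNA of 2 control and 2 Np95 knockout libraries was analysed from the RPKM table that the authors deposited, with 1 column per library, matched to samples by the column heads. Bowtie2 and the build mm9 are named in the submitters' processing notes. The counting program was not given in the sources used here. Of 24444 rows, 27 with a date for a symbol were left out, as were 29 of repeated symbols, the row of the highest mean being kept. In 48.1% to 65.3% of low values, RPKM times RefSeq gene span lay within 0.05 of a whole step. By chance 10.0% would at a fixed depth, but the depth of each library was chosen for the largest share. Spans were taken as the divisor, and no other divisor was scored. In control replicate 1 and knockout replicate 2, 75.2% and 76.3% of whole steps were even, and 2 steps were read as 1 fragment there. RPKM are not counts, so no count test was run. Genes with RPKM of 1 or more in 2 libraries were tested on log2(RPKM + 1) with limma 3.58.1 (R 4.3.3) with a mean-variance trend, two-sided, Benjamini-Hochberg adjusted over 9099 genes at 0.05, a scale that understates changes of low genes. Folds are ratios of mean RPKM. All 10 genes, Uhrf1, called genes of the axis list and the 3 nearest genes for 1 gene per class are named. So are the 2 genes of highest mean RPKM of each other cell type, with no correction for gene span. Axis genes that were not called, and the 8 gene pairs, were named after their values were seen. The genes and lists were chosen with earlier results of these data known. As alternatives, 3 scalings, pseudocounts of 0.1 and 0.5, a filter of 5 RPKM or none, no trend, a replicate block, summed repeated symbols and leaving out each library were tried. Class ratios were also taken with a pseudocount of 1, from summed RPKM and after quantile normalization. Protein sequences were not used here.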

Additional observations from a re-analysis of the deposited data

How the results depend on the processing

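The smallest numbers of fragments behind a value were 133 for Trip13, 139 for Syce3 and 198 for Tex12, and 2 libraries a group limit every interval. The number of genes called was 10816 without a filter and 2709 at 5 RPKM, which follows from testing more or fewer genes. At 5 RPKM 3 of 6 tested members and 3 of 4 other axis genes were called, beside 78.1% of all 3468 genes. Syce2, 4930447C04Rik and Smc1b reached that filter only through the knockout libraries. Without a filter 17 of 22 other axis genes were called, beside 51% of all 21208 genes. Over the alternatives the 10 genes gave 134 values, of which 115 kept direction and side of the threshold, 5 lost the call, 8 gained one and 6 reversed. The reversed log2 fold changes were 0.16 for Sycp2 with an equal RPKM sum, and -0.19 for Sycp3, -0.12 for Tex12 and -0.029 for Hormad1 with an equal median; with 1 library left out Sycp3 ran from -0.021 to 0.15 and Tex12 from -0.035 to 0.27, negative without knockout replicate 1. The 12 other named genes gave 155 values, of which 147 kept both and 8 lost the call. With a library left out, the remaining library of its group is assumed to vary like the others, and 4787 to 5422 genes were called, 4 to 7 members and 9 to 10 other axis genes.

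With a pseudocount of 1 the class ratios were -0.53 (lateral over transverse), -0.15 (lateral over central), -0.34 (lateral over axis), 0.38 (transverse over central) and -0.19 (central over axis). With classes summed, lateral over central reversed to 0.34, lateral over axis was -0.34, transverse over central 1.02, transverse over axis 0.34 and central over axis -0.68. Quantile normalization, added after the data were seen, reversed lateral over central (0.14), lateral over axis (0.16) and central over axis (0.018) and gave -0.069 for lateral over transverse and 0.21 for transverse over central. The cause was not tested beyond this construction. Replicate numbers are shared between the groups only as numbers. With a replicate block 6589 genes, 6 members and 12 other axis genes were called, and deviations of same-numbered libraries had a correlation of 0.11 across 9099 genes.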
